A study of Mus musculus with 2 samples.

Results

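A set of 9 receptors and ligands through which phagocytes take up dying cells and altered proteins were examined in single non-myocyte cells of the mouse heart. The 9 genes (Mertk, Axl, Gas6, Pros1, Timd4, Mrc1, Stab1, Lrp1 and Msr1) were chosen by symbol as known parts of apoptotic cell uptake and scavenging. The rule that lists them uses no measured value, though the members were chosen with earlier results of these data known. All 9 were among the 27998 genes of both count tables. The cells came from heart ventricles of 2 wild type C57BL/6 mice aged 10 to 12 weeks, with 1 library for each mouse, and the design holds no treatment. Myocytes had been spun out and the remaining cells sorted as live by dye exclusion, so that cells with leaky membranes were kept out before sequencing. The comparisons are therefore between kinds of cell in the same hearts.

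Dying cells display phosphatidylserine on their surface, and phagocytes read it in several ways. The receptor kinases Mertk and Axl bind it indirectly, through secreted bridging proteins, Gas6 for both and protein S (Pros1) for Mertk. Tim-4 (Timd4) and stabilin-1 (Stab1) bind it directly. Lrp1 is a large endocytic receptor that also takes part in engulfment, and Mrc1 (the mannose receptor) and Msr1 (scavenger receptor A) clear glycoproteins and modified lipoproteins. In the heart, resident macrophages are known for clearing debris of myocytes, and Lyve1 and Timd4 are used as markers of the long-lived resident cells, Ccr2 as a marker of cells derived from monocytes.

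Cells were sorted into classes by transcripts alone. A macrophage had at least 15 unique molecular identifiers (UMIs, tags that each mark 1 captured RNA molecule) of C1qa, C1qb and C1qc together, a fibroblast at least 5 of Dcn, and an endothelial cell at least 2 of Pecam1, Cdh5 and Egfl7 together. A dendritic cell had at least 1 UMI of Cd209a and at most 10 of the C1q genes. This gave 3001 and 2362 macrophages in mouse 1 and mouse 2, 1865 and 1308 fibroblasts, 967 and 1301 endothelial cells, but only 10 and 26 dendritic cells. Few cells sat at the edge of the macrophage gate, with 12 and 44 at 15 to 16 C1q UMIs just inside it and 18 and 25 at 13 to 14 just outside. The genes of these gates are no findings. Levels are given as CPM, the UMIs of a gene per 1000000 UMIs of the summed cells of 1 class and mouse.

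The gates were checked on markers that they did not use. In macrophages the summed level of 8 macrophage markers such as Csf1r and Adgre1 was 30123 CPM in mouse 1 and 30646 in mouse 2, against at most 867 CPM in fibroblasts and endothelium. The 7 fibroblast markers summed to 34973 and 44066 CPM in fibroblasts, against at most 619 CPM in the other gated classes. The 8 endothelial markers summed to 26270 and 28209 CPM in endothelium, against at most 392 CPM in the other gated classes. The gated dendritic cells summed to 1755 and 1387 CPM over 8 dendritic markers, against 131 and 123 CPM in macrophages. Of these 8 markers, 6 had UMIs in dendritic cells of mouse 2. The dendritic cells also held 7803 and 7668 CPM of the macrophage markers. Median depth was 2845 and 2616.5 UMIs in macrophages, 2752 and 2471 in fibroblasts and 1482 and 1421 in endothelium. The libraries shared 65 barcodes, of which 41 were gated in both mice and 14 fell in the same class, where the class shares give 15.1. The neutrophil markers differed between the libraries in every large class, for example 357 CPM in macrophages of mouse 1 and 22.2 CPM in those of mouse 2.

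All 9 genes are protein-coding, and their positions on the mouse build GRCm38 (mm10) come from GENCODE. Mertk lies at chr2:128698956-128802894 on the plus strand and Mrc1 at chr2:14229392-14332057 on the plus strand. Axl lies at chr7:25757273-25788705, Gas6 at chr8:13465374-13494490 and Msr1 at chr8:39581685-39642673, all 3 on the minus strand. Pros1 is at chr16:62854307-62929346 and Timd4 at chr11:46810800-46844332, both on the plus strand. Stab1 is at chr14:31139013-31168641 and Lrp1 at chr10:127538161-127621148, both on the minus strand. Mertk, Gas6, Stab1 and Lrp1 each overlap a gene annotated on the other strand (Gm14011, Tmem255b, Nt5dc2 and Gm16217). Whether the counting separated the strands is not given in the sources used here, so UMIs of these pairs may not be fully apart.

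Promoter sequences are shown because 5 of the genes (Mertk, Timd4, Mrc1, Stab1 and Msr1) stood highest in macrophages, and the factor PU.1, which shapes the myeloid lineage, binds purine-rich sites around GAGGAA. That motif was searched on both strands (GAGGAA or TTCCTC) in the 250 bases before the RefSeq start of 8 of the 9 genes, as Msr1 had no entry. The motif was present in 3 of the 8, Mrc1 with 3 matches, Stab1 with 1 and Axl with 1, while 23.3% of 32851 promoter windows of the same length did. Mertk, Gas6, Pros1, Timd4 and Lrp1 had no match in this window. The 3 windows are shown from 5′ to 3′ along the gene, with the matches in capitals, at chr2:14229164-14229413 (plus strand) for Mrc1, chr14:31168642-31168891 (minus strand) for Stab1 and chr7:25788734-25788983 (minus strand) for Axl on GRCm38.
Mrc1: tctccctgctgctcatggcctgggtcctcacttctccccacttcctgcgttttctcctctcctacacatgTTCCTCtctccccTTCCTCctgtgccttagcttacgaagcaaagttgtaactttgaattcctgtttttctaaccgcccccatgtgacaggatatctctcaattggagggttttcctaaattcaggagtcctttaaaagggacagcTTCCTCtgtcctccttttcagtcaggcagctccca
Stab1: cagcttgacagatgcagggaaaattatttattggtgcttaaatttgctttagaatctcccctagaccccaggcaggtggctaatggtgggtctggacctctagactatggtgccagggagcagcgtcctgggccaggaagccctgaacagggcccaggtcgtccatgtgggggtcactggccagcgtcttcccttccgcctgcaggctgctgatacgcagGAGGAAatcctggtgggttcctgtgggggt
Axl: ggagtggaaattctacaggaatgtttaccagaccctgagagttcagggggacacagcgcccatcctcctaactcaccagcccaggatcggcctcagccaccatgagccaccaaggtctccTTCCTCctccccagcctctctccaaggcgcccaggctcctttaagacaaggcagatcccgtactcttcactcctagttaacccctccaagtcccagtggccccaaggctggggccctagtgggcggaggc
The matches of Mrc1 begin 180, 167 and 35 bases before the start, that of Stab1 30 bases and that of Axl 130 bases before it. A match is a run of letters in this window and no binding was measured. By level, Mrc1 and Stab1 stood highest in macrophages and Axl in fibroblasts.

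**Figure D1:**
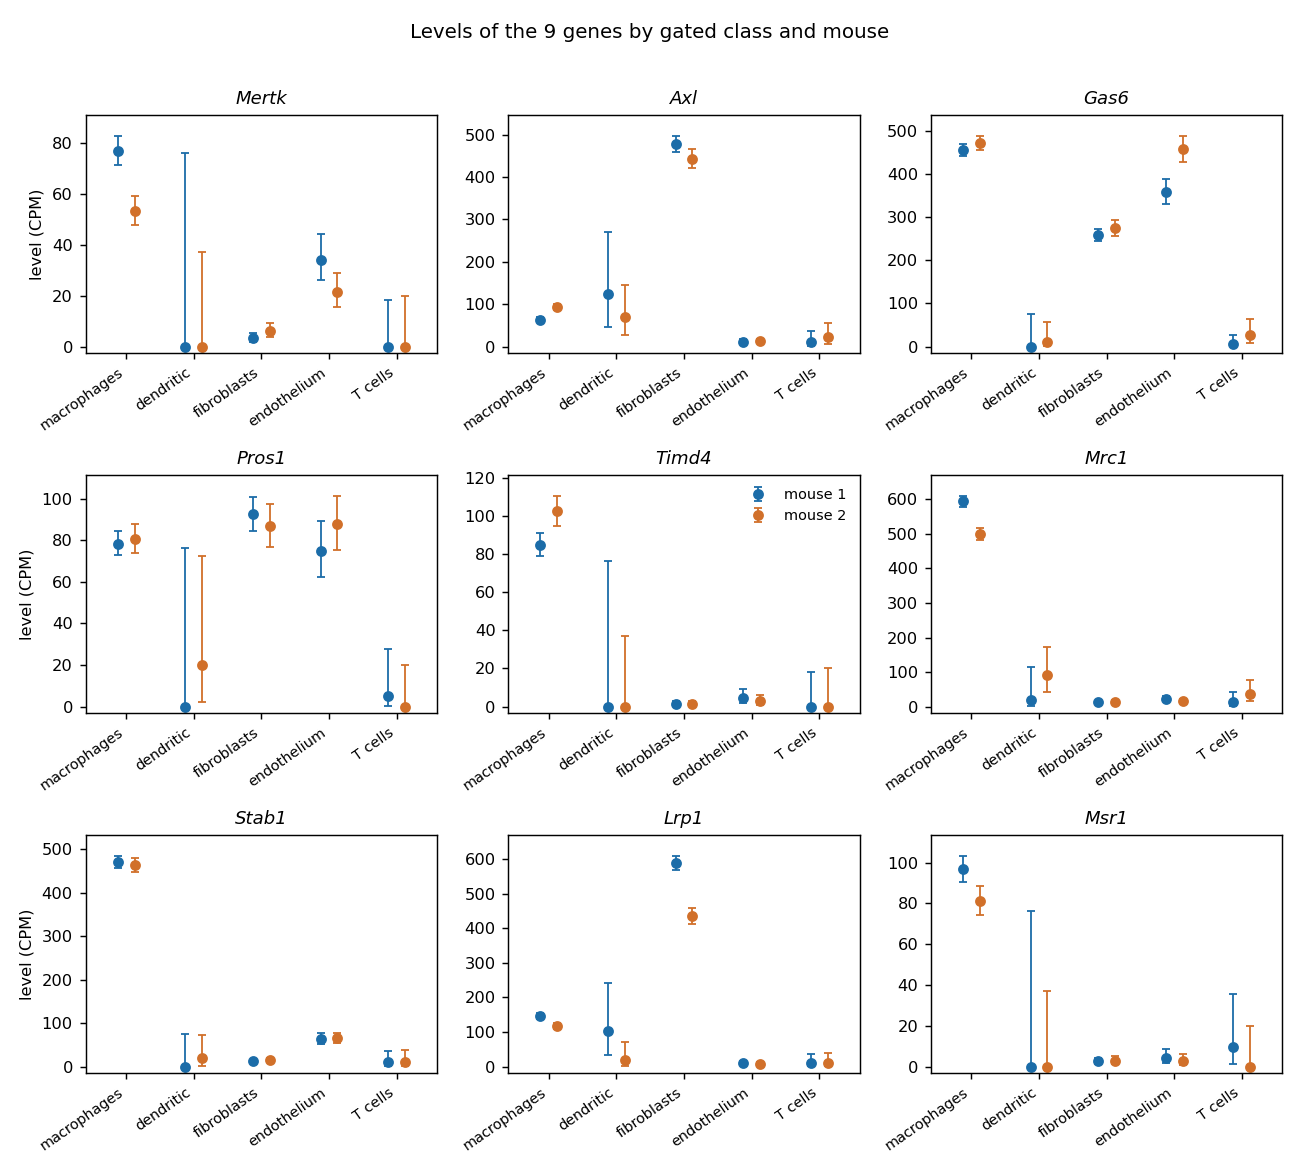
Levels in CPM (vertical axis, linear and different for each gene) of the 9 genes in 5 gated classes, 1 point for each mouse with its exact Poisson 95% interval. Mertk, Timd4, Mrc1, Stab1 and Msr1 stand highest in macrophages, Axl and Lrp1 in fibroblasts, and Gas6 and Pros1 are shared by macrophages, fibroblasts and endothelium.

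The receptor kinases split between the classes. Mertk was measured at 77.1 CPM in macrophages of mouse 1 and 53.3 in mouse 2, at 34.3 and 21.5 in endothelium, and at 3.21 and 6.04 in fibroblasts. The 3 classes did not overlap. Axl stood at 478 and 443 CPM in fibroblasts, at 63.2 and 93.0 in macrophages, and at 11.2 and 12.0 in endothelium, again with no overlap. Macrophages were higher than fibroblasts for Mertk by 4.29 ± 0.25 on the log2 scale (± SE; edgeR's quasi-likelihood test, adjusted p = 9.0e-19) and lower for Axl, at a log2 fold change of -2.21 ± 0.17 (adjusted p = 3.5e-15). Against endothelium macrophages were higher for both, by 1.64 ± 0.21 for Mertk (adjusted p = 9.7e-09) and 3.14 ± 0.24 for Axl (adjusted p = 5.5e-15). Fibroblasts and endothelium were opposite for the pair: fibroblasts over endothelium gave -2.64 ± 0.31 for Mertk and 5.35 ± 0.23 for Axl (adjusted p = 1.5e-09 and 5.7e-23).

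The bridging ligands were far less divided. Gas6, which links phosphatidylserine to both kinases, was measured at 455 and 471 CPM in macrophages, 357 and 457 in endothelium, and 257 and 273 in fibroblasts. Macrophages and endothelium overlapped, and fibroblasts were below both. The test called Gas6 higher in macrophages than in fibroblasts, by 1.18 ± 0.16 (adjusted p = 3.6e-08), but the value fell under the log2 threshold of 1 with RLE scaling (0.93), with total UMIs (0.80), in DESeq2 (0.93) and with cells of several gates kept (0.95). Against endothelium the difference was 0.60 ± 0.16 (adjusted p = 0.0019) for macrophages and -0.58 ± 0.16 (adjusted p = 0.0035) for fibroblasts, both under the fold threshold. Pros1, a blood anticoagulant as well as a bridging protein, had 78.4 and 80.5 CPM in macrophages, 92.5 and 86.6 in fibroblasts and 75.0 and 87.6 in endothelium. None of the 3 pairs was called for Pros1. The macrophage over fibroblast value was 0.20 ± 0.16 (adjusted p = 0.30) and changed sign with the scaling, at -0.05 with RLE scaling and -0.18 with total UMIs.

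The direct phosphatidylserine receptor Timd4 was close to a macrophage gene in these hearts. It had 84.6 and 102 CPM in macrophages, 1.32 and 1.21 in fibroblasts and 4.73 and 2.87 in endothelium, the last 4 values resting on 4 to 8 UMIs each. Macrophages were higher than fibroblasts by 6.50 ± 0.28 (adjusted p = 2.3e-23) and higher than endothelium by 5.05 ± 0.28 (adjusted p = 1.9e-19). Fibroblasts were called below endothelium (-1.45 ± 0.58, adjusted p = 0.038), a call on 11 against 14 UMIs that was lost in DESeq2 (adjusted p = 0.083) and without the filter on low counts (adjusted p = 0.054). Stab1, which also has scavenging ligands, had 470.1 and 464 CPM in macrophages, 64.4 and 65.1 in endothelium, and 12.6 and 16.0 in fibroblasts. Each class was apart from the others, with log2 fold changes of 5.42 ± 0.20 for macrophages over fibroblasts, 3.26 ± 0.18 over endothelium, and -2.16 ± 0.21 for fibroblasts over endothelium (adjusted p = 1.5e-25, 1.2e-19 and 1.7e-11).

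Among the scavenger receptors, Mrc1 stood at 594 and 499 CPM in macrophages, 13.6 and 13.6 in fibroblasts, and 21.3 and 15.8 in endothelium. Msr1 stood at 96.6 and 81.1 CPM in macrophages, 2.64 and 2.72 in fibroblasts, and 4.13 and 2.87 in endothelium. Both were macrophage genes, with Mrc1 higher by 5.71 ± 0.21 over fibroblasts and 5.30 ± 0.22 over endothelium, and Msr1 by 5.43 ± 0.24 and 5.07 ± 0.28 (adjusted p = 1.4e-25, 8.1e-24, 1.1e-22 and 1.6e-19). Fibroblasts over endothelium was not called for either, at -0.41 ± 0.27 for Mrc1 and -0.36 ± 0.50 for Msr1 (adjusted p = 0.23 and 0.61). With cells of several gates kept both were called, at -1.57 and -1.80 (adjusted p = 0.0022 and 0.0011). Lrp1 had the opposite pattern, at 587 and 434 CPM in fibroblasts, 146 and 117 in macrophages, and 10.0 and 9.10 in endothelium. Macrophages were lower than fibroblasts for Lrp1, with a log2 fold change of -1.58 ± 0.16 (adjusted p = 1.3e-11), and higher than endothelium by 4.17 ± 0.24 (adjusted p = 3.0e-19). Fibroblasts were higher than endothelium by 5.75 ± 0.23 (adjusted p = 4.9e-24), the largest gap of any of the 9 genes between those classes.

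By count, 8 of the 9 genes were called between macrophages and fibroblasts (6 higher in macrophages and 2 in fibroblasts), where 38.0% of the 11601 genes tested were called, 18.6% higher in macrophages and 19.4% in fibroblasts. Between macrophages and endothelium it was 7 of 9, all higher in macrophages, beside 34.0% of all genes called, 16.8% higher in macrophages and 17.2% in endothelium. Fibroblasts and endothelium gave 5 of 9 (2 higher in fibroblasts and 3 in endothelium) beside 30.8%, 15.9% and 14.9% by direction. The median log2 fold change of the 9 genes was 4.29 for macrophages over fibroblasts, against 0.01 for all genes, and 3.26 over endothelium, against 0.02. Fold changes here follow TMM scaling, which gave macrophages factors of 0.776 and 0.793 and the other 2 large classes 0.993 to 1.05, so that they exceed the plain CPM ratios. With total UMIs as the scale, the median of all genes moved by -0.37 (macrophages over fibroblasts) and -0.41 (over endothelium). The share of calls that were higher in macrophages went from 49.0% to 35.5% and from 49.5% to 33.6%. The directions of all called members stayed the same under each scaling.

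In droplet data free RNA gives every class a low share of abundant genes, so low levels were set beside 6 abundant macrophage genes (Lyz2, Fcer1g, Tyrobp, Ctss, Cd74 and C1qa). In fibroblasts these stood at 0.778% to 2.69% of their macrophage level in mouse 1 and 0.732% to 1.86% in mouse 2, and in endothelium at 1.36% to 4.11% and 1.35% to 2.80%. Mertk in endothelium was at 44.5% and 40.4% of its macrophage level and Stab1 at 13.7% and 14.0%, several times the highest reference gene of each mouse. Mertk in fibroblasts was at 4.16% and 11.3%, also above the references, on 17 and 20 UMIs. Other low levels lay at or near the references. In endothelium Mrc1 was at 3.58% and 3.17%, inside the range of mouse 1 and just above that of mouse 2, and Timd4 at 5.58% and 2.81%, on 8 and 6 UMIs. In fibroblasts Timd4 was at 1.56% and 1.18%, inside both ranges. In T cells, used as cells that should lack these genes, 101 and 86 cells held no Mertk UMI, which allows up to 14.8 and 16.3 CPM, and Mrc1 stood at 14.8 and 38.0 CPM, at or above its level in fibroblasts. Mrc1 (2.29% and 2.72%) and Msr1 (2.73% and 3.35%) in fibroblasts lay near the highest reference of mouse 1 and above that of mouse 2. Timd4 in fibroblasts was thus not told apart from free RNA, and neither was Mrc1, given its level in T cells. In the other direction, 5 fibroblast genes (Col1a1, Col1a2, Col3a1, Gsn and Lum) were at 0.618% to 1.22% of their fibroblast level in macrophages. Macrophage Axl was at 13.2% and 21.0% of its fibroblast level and Lrp1 at 24.8% and 26.8%, above those references. Endothelial Axl and Lrp1 (means of 11.6 and 9.57 CPM) were no higher than in T cells (15.8 and 10.4 CPM, on 6 and 4 UMIs). They were thus not told apart from free RNA, so the sizes of the gaps that rest on these endothelial levels are uncertain.

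**Figure D2:**
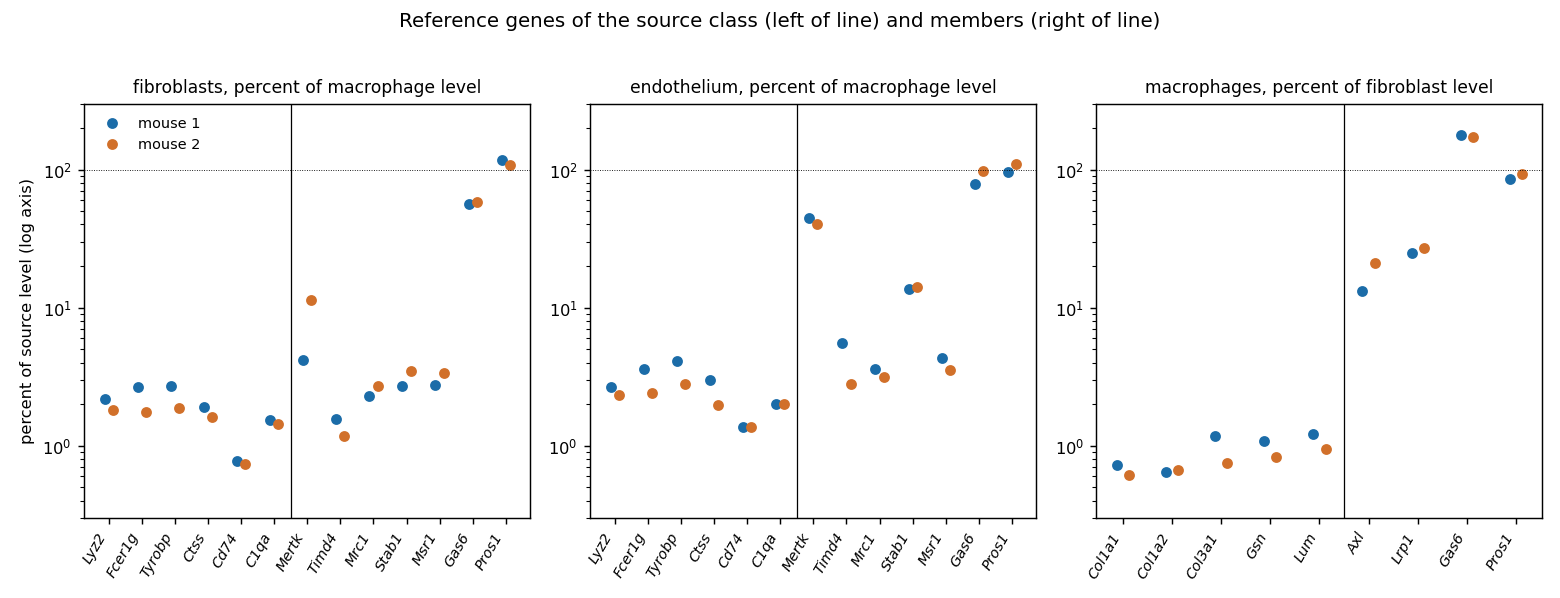
Level of each gene in a class as percent of its level in the source class (log axis), with reference genes of the source left of the line and members right of it, 1 point for each mouse. Endothelial Mertk (44.5% and 40.4%) and macrophage Axl (13.2% and 21.0%) lie above all reference genes of their panel, while Mrc1 and Msr1 in endothelium lie close to them.

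Counted per cell after thinning every cell to 1000 UMIs, Mrc1 was found in 42.3% of macrophages of mouse 1 and 37.6% of mouse 2, Stab1 in 35.6% and 33.1%, and Gas6 in 34.2% and 35.9%. Mertk was found in 7.99% and 5.06% of macrophages, 3.28% and 2.51% of endothelial cells, and 0.216% and 0.552% of fibroblasts. Unthinned, the macrophage shares of Mertk were 20.6% and 13.3%. Axl was found in 36.7% and 29.9% of thinned fibroblasts against 5.92% and 9.59% of macrophages, and Lrp1 in 43.3% and 35.3% of fibroblasts. No thinned T cell had a Mertk UMI, and Axl was found in 1.00% and 2.35% of T cells. Cells under 1000 UMIs were left out, which kept 2992 and 2314 macrophages, 1852 and 1268 fibroblasts and 916 and 1114 endothelial cells. Median UMIs were 1539 and 1761 in T cells before thinning.

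The mice differed in opposite directions for the kinases. Mertk in macrophages was 1.45 times as high in mouse 1 as in mouse 2 (exact binomial 95% interval 1.27 to 1.65) and Axl 0.680 times (0.606 to 0.763). Each is 1 library a side, so this is a description of 2 libraries with no test. Mertk was higher in mouse 1 in endothelium too, at a ratio of 1.59 (1.06 to 2.40), but not in fibroblasts, at 0.531 on 17 and 20 UMIs (0.261 to 1.07), while Axl in fibroblasts was nearly level at 1.08 (1.01 to 1.15). Lrp1 was higher in mouse 1 in both of its main classes, at 1.35 (1.27 to 1.44) in fibroblasts and 1.25 (1.14 to 1.37) in macrophages. Timd4 in macrophages was lower in mouse 1, at 0.827 (0.745 to 0.918).

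The gated endothelium was split by lymphatic genes (at least 2 UMIs of Prox1, Mmrn1 and Ccl21a, 10 and 31 cells), then by endocardial genes (at least 1 UMI of Npr3 and Cytl1, 45 and 58 cells), leaving 912 and 1212 other cells. Stab1 was highest in the lymphatic cells, at 723 CPM in mouse 1 and 331 in mouse 2, lower in the endocardial cells (229 and 135), and lowest in the others (49.4 and 52.7). The lymphatic level was 8.12-fold the others' (exact binomial 95% interval 5.39 to 11.9 over pooled counts of 32 and 180 UMIs), and 14.6 and 6.29 in each mouse. The endocardial level of Stab1 was 3.39-fold the others' (2.26 to 4.93). Mrc1 was 6.41-fold higher in lymphatic cells than in the others (2.64 to 13.5, on 8 UMIs), at 12.4 in mouse 1 and 4.89 in mouse 2, and Pros1 3.38-fold (2.03 to 5.33), of which mouse 1 gave 1.69 on 2 UMIs (0.202 to 6.24). Gas6 was 1.71-fold higher in endocardial cells than in the others (1.41 to 2.05), at 1.30 in mouse 1 (0.903 to 1.82) and 1.92 in mouse 2 (1.53 to 2.38). Mertk had 102 UMIs in the other cells, 1 in endocardial and 0 in lymphatic cells, where the other cells held 92.9% of all endothelial UMIs. For endocardial cells the ratio of 5.52 had an interval of 0.969 to 220.1, so a lower Mertk level there was not shown at this depth. These intervals cover counting error only.

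**Figure D3:**
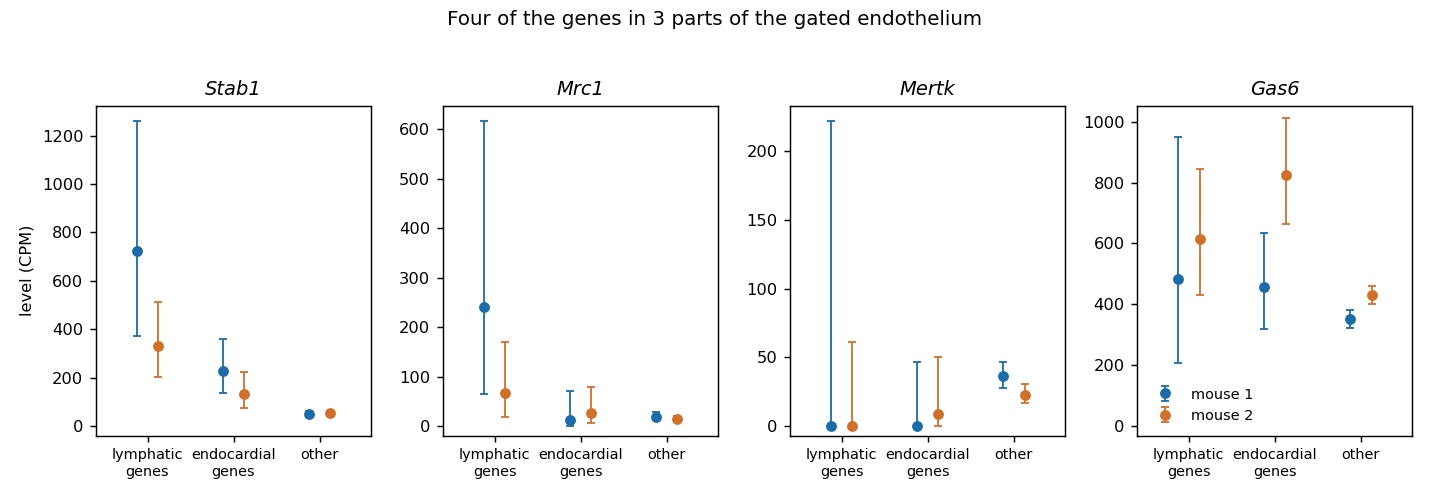
Levels in CPM (vertical axis, linear and different for each gene) of Stab1, Mrc1, Mertk and Gas6 in endothelial cells with lymphatic genes, with endocardial genes and in the other endothelial cells, 1 point for each mouse with its exact Poisson 95% interval. Stab1 stands highest in the lymphatic part of both mice (723 and 331 CPM), while Mertk has too few UMIs outside the other cells to set its level there apart (ratio interval 0.969 to 220.1).

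In the gated dendritic cells the genes were thinly covered, with 48446 and 99509 UMIs over all genes. Axl stood at 124 and 70.3 CPM (6 and 7 UMIs) and Mrc1 at 20.6 and 90.4 CPM (1 and 9 UMIs). Mertk, Timd4 and Msr1 had no UMI there. Their macrophage levels were at least 3.31-fold higher for Mertk, at least 4.54-fold for Timd4 and at least 4.45-fold for Msr1, taking 3 counts over both mice as the most that 0 allows. Gas6 was 68.3-fold higher in macrophages over 1 dendritic UMI (95% interval 12.3 to 2698), Stab1 34.6-fold over 2 UMIs (9.57 to 285.7) and Pros1 5.86-fold over 2 UMIs (1.62 to 48.5). The test called 8 of 9 genes higher in macrophages, beside 8.15% of all genes, 6.67% higher in macrophages and 1.48% in dendritic cells. The macrophage over dendritic value for Axl was 0.39 ± 0.42 (adjusted p = 0.65), with an opposite sign with total UMIs (-0.17). For Lrp1 the call of 1.99 ± 0.45 (adjusted p = 0.0021) was lost in DESeq2, with total UMIs and with cells of several gates kept (adjusted p = 0.084, 0.072 and 0.059). That of Pros1 was lost in DESeq2 (adjusted p = 0.096). The share of all calls that were higher in macrophages went from 81.8% to 49.4% with total UMIs, and the median of all genes by -0.56.

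Against the dendritic cells, fibroblasts were higher for Axl and Lrp1 by the fit, at dendritic over fibroblast values of -2.60 ± 0.35 and -3.57 ± 0.39 (adjusted p = 1.2e-07 and 8.2e-10). In all 5 of 9 genes were called between dendritic cells and fibroblasts, 1 higher in dendritic cells (Mrc1, 2.14 ± 0.59, adjusted p = 0.0069) and 4 in fibroblasts, beside 18.5% of all genes, 6.84% and 11.7% by direction. The Mrc1 call was lost with cells of several gates kept (adjusted p = 0.22). Dendritic cells were higher than endothelium for Axl, by 2.75 ± 0.57 (adjusted p = 0.00026). That comparison called 7 of 9, 3 higher in dendritic cells and 4 in endothelium, beside 17.5% of all genes, 5.89% and 11.6% by direction. With cells of several gates kept 3 were called, and Axl was not among them (adjusted p = 0.085). Mrc1 (1.73 ± 0.58) and Lrp1 (2.18 ± 0.70) were also called higher in dendritic cells, on 10 and 7 dendritic UMIs (adjusted p = 0.030 and 0.021). Both calls were lost with cells of several gates kept (adjusted p = 0.96 and 0.43) and without the mouse block (adjusted p = 0.056 and 0.057). The call of Mertk, on no dendritic UMI (adjusted p = 0.047), held in 2 of 9 alternatives and was lost in the others (adjusted p up to 0.094), and those of Pros1 and Stab1 were lost in DESeq2 (adjusted p = 0.055 and 0.11).

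Macrophages were then split into 3 disjoint sets: 2112 and 1250 cells with at least 1 Lyve1 UMI and under 2 of Ccr2, 116 and 100 with at least 2 Ccr2 UMIs and no Lyve1, and 734 and 991 with neither. A further 39 and 21 cells met both and were left out. Because 1 UMI decides the first set, it favours deeper cells, with a median of 2949 and 2857 UMIs against 2376.5 and 2350 in the set with neither. The Ccr2 set, which needs 2 UMIs, was the deepest, at 3679.5 and 3381.5. Markers of other cells moved with the split. The monocyte markers Ly6c2, Chil3 and Plac8, all 3 with UMIs in the Ccr2 set, summed there to 417 CPM in mouse 1 and 48.9 in mouse 2, against 1.24 to 7.17 CPM in the other sets. The 8 dendritic markers summed to 276 and 171 CPM in the Ccr2 set against 81.3 to 137 in the others. The 4 neutrophil markers in mouse 1 went the other way, at 427 CPM with Lyve1 and 115 with Ccr2 and the set with neither between them, and stood at 21.1 to 24.4 CPM in mouse 2. The part of these in the differences was not tested.

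Gas6 stepped down across the 3 sets, at 553 and 611 CPM with Lyve1, 231 and 318 with neither and 51.3 and 92.3 with Ccr2. The sets did not overlap. Lyve1 over neither gave 1.06 ± 0.09 (adjusted p = 3.8e-13), Ccr2 over neither -1.90 ± 0.17 (adjusted p = 2.8e-11) and Lyve1 over Ccr2 2.96 ± 0.16 (adjusted p = 3.2e-19). Within macrophages with no UMI of the cardiomyocyte genes Myh6, Tnnt2 and Mb, Lyve1 over neither was 0.94, under the fold threshold. Those macrophages still held 177 and 104 CPM of 7 other cardiomyocyte markers in mouse 1 and mouse 2. Without the mouse as a block, Lyve1 over neither was no longer called for Gas6 (adjusted p = 0.10). Axl went the other way, at 42.9 and 57.6 CPM with Lyve1, 112 and 137 with neither and 152 and 149 with Ccr2. Its Lyve1 over neither value was -1.36 ± 0.11 (adjusted p = 8.6e-13) and its Lyve1 over Ccr2 value -1.71 ± 0.17 (adjusted p = 1.2e-10), while Ccr2 over neither was 0.35 ± 0.16 and not called (adjusted p = 0.22). Axl was thus lowest in the set where its ligand Gas6 was highest.

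Mertk did not follow Lyve1. It stood at 78.8 and 57.4 CPM with Lyve1 and 80.2 and 51.8 with neither, overlapping, with a difference of 0.01 ± 0.12 (adjusted p = 0.99). With Ccr2 it stood at 40.6 and 27.1 CPM, on 19 and 10 UMIs, below both other sets. Ccr2 over neither was -0.89 ± 0.26 (adjusted p = 0.026) and under the fold threshold. Among macrophages with no Myh6, Tnnt2 or Mb UMI it was -1.28 (adjusted p = 0.025) and called. Lyve1 over Ccr2 was 0.90 ± 0.25 (adjusted p = 0.0097) and likewise 1.36 there (adjusted p = 0.0059).

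Timd4 was concentrated in the Lyve1 set, at 109 and 151 CPM against 24.3 and 43.1 with neither and 6.41 and 24.4 with Ccr2, the last on 3 and 9 UMIs. Lyve1 over neither was 1.90 ± 0.13 (adjusted p = 6.1e-15), lost without the mouse block (adjusted p = 0.063), and Lyve1 over Ccr2 was 3.05 ± 0.30 (adjusted p = 8.1e-11). Ccr2 over neither was -1.14 ± 0.40 and not called (adjusted p = 0.076), and those sets overlapped. With stricter gates (at least 2 Lyve1 and 3 Ccr2 UMIs) it was -1.63 and called (adjusted p = 0.039). Of the 607 and 515 macrophages with a Timd4 UMI, 566 and 421 also had a Lyve1 UMI, and 7 and 7 had at least 2 of Ccr2. For scale, of all 3001 and 2362 macrophages 2112 and 1250 were in the Lyve1 set, 116 and 100 in the Ccr2 set, and 39 and 21 met both. A Timd4 or a Lyve1 UMI is also found more easily in deeper cells.

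Stab1 and Mrc1 were graded over the 3 sets. Stab1 was at 541 and 562 CPM with Lyve1, 327 and 376 with neither and 105 and 114 with Ccr2. Mrc1 was at 679 and 589.5, 380.0 and 405, and 259 and 231 CPM in the same order, and for both genes no set overlapped another. The step from neither to Ccr2 was called for Stab1 (-1.62 ± 0.14, adjusted p = 6.4e-12) and was under the fold threshold for Mrc1 (-0.62 ± 0.12, adjusted p = 0.00021). Lyve1 over Ccr2 was called for Stab1 (2.24 ± 0.13, adjusted p = 1.2e-17) and Mrc1 (1.27 ± 0.11, adjusted p = 3.3e-12). Lyve1 over neither was 0.61 ± 0.08 for Stab1 and 0.65 ± 0.08 for Mrc1 (adjusted p = 6.2e-08 and 2.4e-08), both under the fold threshold.

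Pros1 had 91.3 and 98.0 CPM with Lyve1, 42.7 and 61.8 with neither, and 40.6 and 35.3 with Ccr2. The Lyve1 set was higher than the Ccr2 set by 1.20 ± 0.24 (adjusted p = 0.00022). Without the cells that held Myh6, Tnnt2 or Mb UMIs this value was 0.90, under the fold threshold, and the call was lost. The Lyve1 set was higher than the set with neither by 0.81 ± 0.13 (adjusted p = 3.9e-06), under the fold threshold. Lrp1 had 154 and 136 CPM with Lyve1, 119 and 90.8 with neither and 128 and 86.9 with Ccr2, and Msr1 had 103 and 91.3, 87.6 and 69.6, and 64.1 and 57.0 CPM. No pair of sets was called for either gene, though Lrp1 in Lyve1 over neither (0.43 ± 0.10, adjusted p = 0.0020) and Msr1 in Lyve1 over Ccr2 (0.58 ± 0.20, adjusted p = 0.047) passed the adjusted p without the fold threshold.

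In all, 3 of the 9 genes were called for Lyve1 over neither (2 higher with Lyve1 and 1 lower) beside 3.50% of the 9371 genes tested, 1.36% higher with Lyve1 and 2.14% lower. For Ccr2 over neither 2 of 9 were called, both lower, beside 2.91% of all genes, 1.55% lower with Ccr2 and 1.37% higher. For Lyve1 over Ccr2 it was 6 of 9 beside 7.15%, 5 of them higher with Lyve1 beside 3.95% and 1 lower beside 3.20%. These comparisons share their sets, so their counts are not independent. In DESeq2 the numbers of all genes called were lower, at 155, 142 and 413 against 328, 273 and 670.

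**Figure D4:**
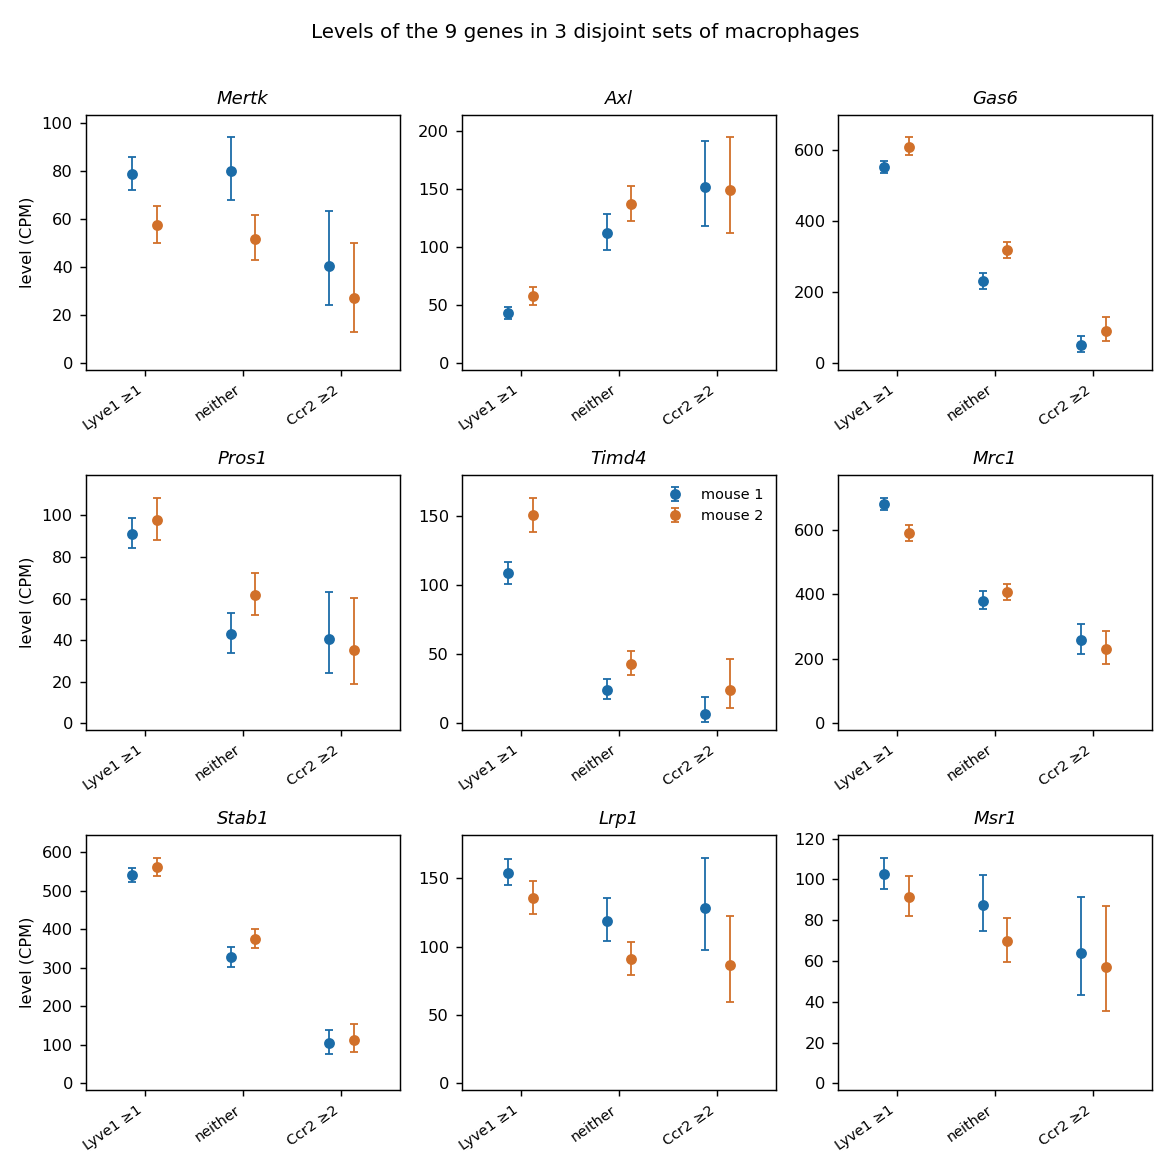
Levels in CPM (vertical axis, linear and different for each gene) of the 9 genes in macrophages with Lyve1, with neither marker and with Ccr2, 1 point for each mouse with its exact Poisson 95% interval. Gas6, Mrc1 and Stab1 step down from left to right, Axl steps up (42.9 and 57.6 CPM to 152 and 149), and Mertk is level between the first 2 sets.

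Macrophages with a Timd4 UMI (607 and 515 cells) were set against those with none (2394 and 1847), leaving Timd4 itself aside. None of the other 8 genes was called, beside 1.02% of 9942 genes, 0.272% higher with Timd4 and 0.744% lower. Without the fold threshold, 6 of the 8 passed edgeR's test at the adjusted p, beside 7.08% of all genes, and 6 had an unadjusted p below 0.05, beside 16.6%. Axl was at 41.6 and 59.4 CPM with Timd4 against 69.8 and 104 without, a log2 fold change of -0.80 ± 0.11 (adjusted p = 2.7e-10). Gas6 was at 549 and 606 against 426 and 425 CPM, with 0.42 ± 0.05 (adjusted p = 1.2e-14). Mertk, with 79.5 and 49.8 against 76.3 and 54.5 CPM, overlapped and gave -0.02 ± 0.11. Among macrophages with Lyve1 the values were -0.22 for Axl and 0.11 for Gas6 (adjusted p = 0.68 and 0.27). Among those without Lyve1 they were -0.70 and 0.42 (adjusted p = 0.30 and 0.34), close to those over all macrophages, and no member passed in either stratum. The cells with Timd4 were also deeper, with median UMIs of 3249 and 3044 against 2740 and 2501. DESeq2 called 6 genes in this comparison and the fit without the mouse block 1.

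Macrophages that carried at least 6 UMIs of the cardiomyocyte genes Myh6, Tnnt2 and Mb (98 cells in mouse 1 and 11 in mouse 2) were set against the 1999 and 1961 with none. The gate does not show how that RNA came to be in the droplet. The cells in mouse 1 were deeper, with a median of 3616 UMIs against 2732, and those in mouse 2 were not, with 2528 against 2570. None of the 9 genes was called by edgeR, beside 0.816% of the 9439 genes tested, 0.795% higher with myocyte UMIs and 0.0212% lower. Of the 9, 0 had an unadjusted p below 0.05 in edgeR, beside 3.95% of all genes. DESeq2 also called 0 of the 9, and 41 of all genes. Mertk was at 74.5 and 29.6 CPM (30 and 1 UMIs) against 75.4 and 53.2, a log2 fold change of -0.15 ± 0.34. Axl was at 89.3 and 118 against 57.6 and 90.5 CPM, with 0.47 ± 0.33, and Gas6 at 372 and 503 against 473 and 480.1, with -0.38 ± 0.28. For the other 6 genes the values ran from -0.59 to -0.29, with SE of 0.28 to 0.36. Of these, Pros1 and Msr1 had no UMI in the 11 cells of mouse 2, so that their 26 and 33 UMIs came from mouse 1 alone. The median of the 9 genes was -0.38, against -0.08 for all genes, and 1 of the 9 (Axl) was positive. In data simulated at these depths, 7% of genes changed 2-fold and 91% of those changed 4-fold passed the adjusted p in this comparison. The simulation used a fixed spread not estimated from these data, and the changed genes were well covered ones. These shares therefore do not measure the power of the real fit. The cells with myocyte UMIs of mouse 1 also held 1670 CPM of neutrophil markers against 323 in those with none, and their part in the result was not tested.

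**Figure D5:**
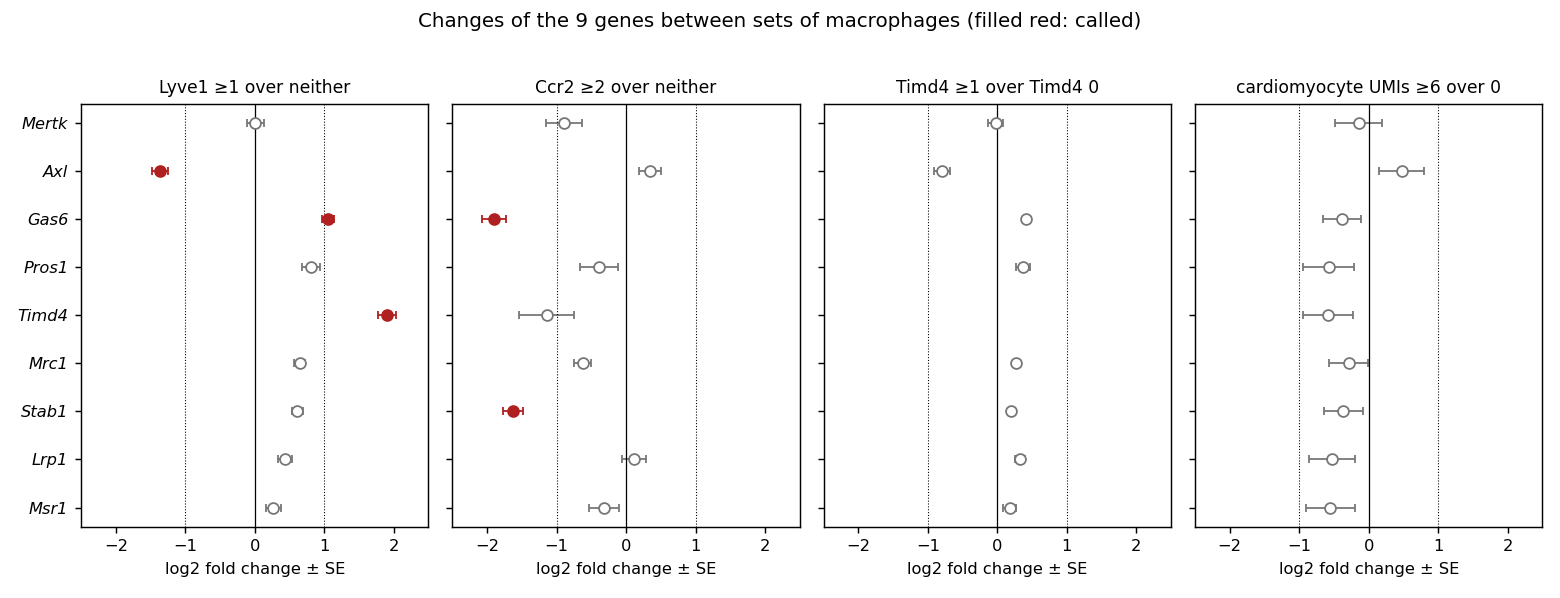
Log2 fold change ± SE (horizontal axis) of each gene in 4 comparisons between sets of macrophages, with called genes filled in red and dotted lines at the fold threshold. Called genes are found in the first 2 panels alone, Axl, Gas6 and Timd4 for Lyve1 and Gas6 and Stab1 for Ccr2.

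The members were also compared with each other over 12 sums, those of the 3 macrophage sets, dendritic cells, fibroblasts and endothelium in each mouse. Over these points, which share libraries and classes, Pearson's r of log2(CPM + 1) was 0.95 between the ligands Gas6 and Pros1. It was 0.92 between Timd4 and Msr1, 0.87 between Axl and Lrp1, and -0.30 between Mertk and Axl. Over both mice the dendritic sums held 1 UMI of Gas6, 2 of Pros1 and 0 of Timd4, Msr1 and Mertk. How far these low points set the values of r, here and below, was not tested. Among 4404 other genes, the one most like Mrc1 was Csf1r (r = 0.991), a growth factor receptor of macrophages, and Msr1 was most like Slc11a1 (0.994), a metal transporter of phagosomes. Mertk was most like Pdlim4 (0.979) and Timd4 like Prune2 (0.982) and Pf4 (0.964), a chemokine. Axl had no match above 0.906 (Zfp385a), and its second was Serpinf1 (0.887), which encodes a secreted serpin. For Gas6 it was Nisch (0.986), for Pros1 Scoc (0.982), for Stab1 Zswim6 (0.971) and for Lrp1 Pld3 (0.940).

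A list of 72 further genes of engulfment, scavenging and lipid handling was set beside the members, with 71 in the tables. Of 60 tested, 30 were called higher in macrophages than in fibroblasts, 11 were lower and 19 were not called. Of all genes tested, 18.6% were called higher in macrophages and 19.4% in fibroblasts. Macrophages were higher for the Fc receptors Fcgr4 (6.56 ± 0.30) and Fcgr3 (6.26 ± 0.21), for the mitochondrial carrier Ucp2 (6.22 ± 0.22) and for Cd300a, an inhibitory receptor for phosphatidylserine (6.08 ± 0.25). Fibroblasts were higher for the ferritin receptor Scara5 (-6.71 ± 0.25), for thrombospondin-1 (Thbs1, -4.49 ± 0.21), for lipoprotein lipase (Lpl, -4.21 ± 0.25) and for the oxysterol receptor Nr1h3 (-2.91 ± 0.23). Fibroblast levels of Thbs1 (125 ± 92.9 CPM) and Lpl (1365 ± 440 CPM) varied widely between the mice (SD, n = 2 mice). The list's median was 1.09, against 0.01 for all genes.

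Against endothelium, 27 of the 60 were called higher in macrophages and 11 lower, beside 16.8% and 17.2% of all genes. The list's median was 0.59, against 0.02 for all genes. Cd300a (6.17 ± 0.30), Fcgr1 (5.91 ± 0.28), Fcgr3 (5.89 ± 0.22) and the haemoglobin receptor Cd163 (5.69 ± 0.23) were higher in macrophages. Endothelium was higher for Lpl (-4.23 ± 0.25), the nuclear receptor Pparg (-4.00 ± 0.23), the fatty acid and scavenger receptor Cd36 (-3.22 ± 0.20) and the bridging protein Mfge8 (-2.86 ± 0.18). Mfge8 was at 260.0 ± 14.9 CPM in endothelium and 27.3 ± 5.62 in macrophages (SD, n = 2 mice). Endothelial Lpl varied more between the mice, at 1474 ± 814 CPM. Between fibroblasts and endothelium 14 were higher in fibroblasts, among them Scara5, Thbs1, Colec12 and Itgb5, beside 15.9% of all genes. In endothelium 11 were higher, among them Pparg, S1pr1, Cd36 and Cd93, beside 14.9% of all genes. The list's median for fibroblasts over endothelium was -0.05, against 0.0044 for all genes. S1pr1 varied widely between the mice, at 530 ± 281 CPM in endothelium (SD). In dendritic cells 23 were lower than in macrophages and 1, the annexin Anxa1, was higher (macrophages over dendritic cells -1.14 ± 0.28). Of all genes, 6.67% were called lower in dendritic cells than in macrophages and 1.48% higher.

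Among the macrophage sets, 53 genes of the list were tested. With Lyve1 over neither 2 were higher, the scavenger collectin Colec12 (1.45 ± 0.17) and the lectin Cd209f (2.13 ± 0.30, named after its value was seen), and 6 lower, among them Fcgr4 (-2.10 ± 0.11), the fractalkine receptor Cx3cr1 (-1.68 ± 0.13) and Cxcl16, which also binds oxidised lipoprotein (-1.07 ± 0.08). With Ccr2 over neither 1 was higher (Anxa1, 1.69 ± 0.17) and 6 were lower, among them Cd163 (-1.79 ± 0.16), the lipid carrier Apoe (-1.69 ± 0.06), the cholesterol exporter Abca1 (-1.21 ± 0.20) and the transcription factor Maf (-1.04 ± 0.11). Lyve1 over Ccr2 gave 9 higher, with Cd163 (2.73 ± 0.14), S1pr1 (2.53 ± 0.35), Abca1 (1.77 ± 0.18) and Colec12. Mean levels of Colec12 were 57.5 CPM with Lyve1 and 3.49 CPM with Ccr2, on 582 and 3 UMIs. The same comparison gave 7 lower, with Cx3cr1 (-2.09 ± 0.19), Fcgr4 (-1.84 ± 0.18) and Lpl (-1.47 ± 0.20). Of all genes, 1.36%, 1.37% and 3.95% were called higher in these comparisons, in the same order, and 2.14%, 1.55% and 3.20% lower. The medians of the list were -0.01, -0.14 and 0.01, beside -0.0033, -0.02 and 0.01 for all genes. Cx3cr1 varied widely between the mice, at 50.5 ± 41.4 CPM with Lyve1 and 149 ± 90.6 with neither (SD, n = 2 mice). For the Timd4 split 1 of 54 was higher with Timd4 (Cd209f, 1.05 ± 0.21) and 1 lower (Cx3cr1, -1.36 ± 0.12), beside 0.272% and 0.744% of all genes. For the cardiomyocyte split 1 of 52 was higher with myocyte UMIs (Lpl, 1.20 ± 0.29), beside 0.795% of all genes. All 3 were named after their values were seen.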

How the data were processed

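The authors deposited raw counts, UMIs per gene and cell barcode, not normalized, from 10x 3' version 2 libraries, with FastQC, Cell Ranger 2.2.0 and build mm10 named in the submitters' processing notes. The tables held 7732 and 6367 barcodes with 21355383 and 15174548 UMIs. Cells with at least 500 UMIs, 300 genes and at most 10% mitochondrial UMIs were kept, Scrublet (scanpy 1.11.5) removed 405 and 248 doublets, and 6608 and 5687 cells stayed. Cells that met no gate (624 and 598) or several (141 and 92) were left out.

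For each class the UMIs of a mouse were added up, and the sums were fitted with edgeR 4.0.16 under R 4.3.3 (TMM, filterByExpr, quasi-likelihood F test). Mouse was a block, since the classes pair by animal. The fit of the 4 classes had 3 residual degrees of freedom, that of the macrophage sets 2 and those of the Timd4 and cardiomyocyte splits 1, so p-values rest largely on a spread shared over genes. A gene was called when its p, adjusted by Benjamini-Hochberg across the whole table, was under 0.05 and its log2 fold change was 1 or more in size. SE come from the F statistic. CPM carry exact Poisson and shares exact Clopper-Pearson 95% intervals. Intervals and the floor of 3 counts cover counting error only. The scripts were tested on simulated data, where 77% of 2-fold and 100% of 4-fold changes between macrophages and fibroblasts passed the adjusted p. Depths came from the data, but the spread was fixed, unchanged genes were alike in all classes, and changed genes were well covered ones. The shares therefore do not measure the power of the real fits.

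The members, gates and lists were chosen with earlier results of these data known. All 9 members were named between macrophages, fibroblasts and endothelium and between the macrophage sets, and some of them in other comparisons. Of the list, up to 4 called genes a direction with the largest change were named (minimum 50 CPM in both mice where higher). The genes most like each member were taken among those with at least 50 CPM in 2 or more sums. Alternatives were DESeq2 1.42.0, RLE or total-UMI scaling, no filter, no block, no fold threshold, doublets or multi-gate cells kept, stricter gates, a depth window of 2000 to 6000 UMIs, thinning to 1500 UMIs, and single mice. The Lyve1 strata of the Timd4 split and the sets without Myh6, Tnnt2 and Mb UMIs were added after seeing the data. Clec7a and promoter sequence of Msr1 were not analysed here. Part of the monocyte marker list is not reported here, and its 3 printed markers were summed after seeing the data.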

Additional observations from a re-analysis of the deposited data

How the results depend on the processing

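Over all alternatives that kept both mice, values of called members kept their direction and stayed called in 441 cases and lost the call in 29, and of those not called 423 stayed so, 22 became called and 11 changed sign. The block for mouse changed the calls named in the report and these counts: without the replicate block, members called fell to 1 of 9 for Lyve1 over neither and to 4 for dendritic cells over endothelium, and all genes called to 60 (Lyve1 over neither), 41 (Ccr2 over neither), 261 (Lyve1 over Ccr2) and 1 (Timd4 split). DESeq2 called 558 genes for macrophages over dendritic cells (946 in edgeR), 155, 142 and 413 for the 3 pairs of macrophage sets, 41 for the cardiomyocyte split (77 in edgeR) and 6 for the Timd4 split (101 in edgeR), where it gave no adjusted p for 9059 genes, and 4 members for dendritic cells over endothelium. RLE scaling called 623, total UMIs 585 and cells of several gates 477 genes for macrophages over dendritic cells, and those cells left 3 members for dendritic cells over endothelium. With no fold threshold all genes called were 6706 for macrophages over fibroblasts, 1265, 654 and 1269 for the pairs of macrophage sets and 704 for the Timd4 split, with members at 7 (Lyve1 over neither), 4 (Ccr2 over neither) and 6 (Timd4 split). The cardiomyocyte split called 129 genes with no filter, 40 among Lyve1-negative and 46 among Lyve1-positive macrophages, and the Timd4 split 34 and 11. Signs changed, for values that were not called, for Axl in macrophages over dendritic cells (-0.17 with total UMIs), Pros1 in macrophages over fibroblasts (-0.0517 in DESeq2, -0.0526 with RLE scaling, -0.18 with total UMIs) and over endothelium (-0.0376 with total UMIs), Timd4 in dendritic cells over fibroblasts (0.87 in DESeq2), Mertk in Lyve1 over neither (-0.0019 with doublets kept), in the cardiomyocyte split (0.18 among Lyve1-positive cells, 0.0115 without the block) and in the Timd4 split (0.0244 among Lyve1-positive cells), and Stab1 in the Timd4 split (-0.0036 among Lyve1-positive cells). Fewer cells enter the strata and the cells of several gates carry RNA of 2 classes by construction; for the other settings the cause was not tested. Single mice gave ratios with no test, and of called values 84 moved by at most their SD and 18 by more. Depth limits the dendritic cells, the lymphatic and endocardial parts, the T cells, the Ccr2 set and the cells with cardiomyocyte UMIs.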
